A study of Mus musculus with 36 samples.

Results

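Elastic fibres give arteries, lung and skin their recoil. Their core is elastin, made from the soluble precursor tropoelastin, which is laid down on a scaffold of microfibrils built from fibrillins. Fibulins bind tropoelastin, fibrillins and lysyl oxidases and help to place elastin on that scaffold, and the lysyl oxidases then cross-link it. The 10 genes described here were chosen by name for these roles and comprise elastin itself (Eln), the fibrillins (Fbn1 and Fbn2), the fibulins (Fbln1, Fbln2, Fbln5, Efemp1 coding for fibulin-3 and Efemp2 coding for fibulin-4) and the cross-linking enzymes (Lox and Loxl1). They are 10 of the 24411 genes listed in the RNA-seq tables, and 9 of them had enough reads to enter the tests over 12509 genes. Fbn2 did not.

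The cells were cultures of mesenchymal stem cells (MSCs), adherent stromal cells that can form bone, fat and cartilage, from wild-type C57BL6/J mice of 8 weeks of age. They came from femoral bone marrow (fBM-MSCs), vertebral bone marrow (vBM-MSCs), adipose tissue (A-MSCs) and lung (pulmonary, P-MSCs). According to the study the tissues were taken from the same mice. Its methods state that the marrow was freed by crushing the bone, the other tissues were digested with collagenase, and the cells of all tissues were seeded on collagen I-coated dishes in MesenCult medium with MesenPure and a further additive, the same for all tissues, and were cultured for up to 3 passages. Apart from the way the tissues were opened, no difference in handling between the groups is given. RNA-seq tables of 3 fBM-MSC, 2 vBM-MSC, 3 A-MSC and 3 P-MSC libraries were used, together with 1 pooled list of ATAC-seq peaks (stretches of open chromatin) for each tissue.

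Total counts ran from 19569650 to 40517739 per library. The MSC markers Itgb1, Cd44, Ly6a and Vcam1 summed to between 983 and 2336 TPM (transcript abundance scaled for length and library size) in every library. Of the non-MSC markers, Pecam1 and Ptprc did not exceed 3.84 TPM in any library, and Cd34 lay at 10.2 to 79.2 TPM in the fBM-MSCs and at most 7.46 TPM elsewhere. The epithelial list summed to no more than 0.44 TPM, the endothelial list to no more than 6.04 TPM and the macrophage list to no more than 49.4 TPM in any library. The adipocyte list summed to 2.68 to 3.84 TPM in the P-MSCs and to between 22.02 and 157 TPM in the other libraries, the chondrocyte list to no more than 87.6 TPM, and the mesothelial list to 60.6 to 77.2 TPM in the A-MSCs and no more than 4.14 TPM in the others. The third fBM-MSC library stood apart from the other fBM-MSC libraries: the 4 osteoblast markers reached their highest sum, 2312 TPM, among the fBM-MSCs, whose lowest sum was 419 TPM, and results that rest on this library are given with and without it.

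The sequences shown here belong to the genes with the widest range of RNA between tissues, to the strongest ATAC-seq site that at least 1 list lacked at each of 3 genes, and to an exon whose use differed between tissues. They were read from the RefSeq promoter table and the genome of build GRCm38.p6, the same assembly as mm10, and are printed 5′ to 3′ on the strand of the gene. Of the 10 genes, Lox and Fbn2 were set aside before the search, and 6 of the others matched an entry of the promoter table. The promoters of Efemp1 (chr11:28852955-28853204, plus strand) and Fbln5 (chr12:101819120-101819369, minus strand) are the 250 bases before the transcription start site, with motif letters in capitals.
Efemp1 promoter: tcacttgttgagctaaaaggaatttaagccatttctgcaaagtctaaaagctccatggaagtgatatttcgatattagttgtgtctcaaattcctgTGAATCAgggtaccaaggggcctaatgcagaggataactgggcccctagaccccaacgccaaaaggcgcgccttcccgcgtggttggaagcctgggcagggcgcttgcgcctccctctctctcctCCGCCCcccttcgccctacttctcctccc
Fbln5 promoter: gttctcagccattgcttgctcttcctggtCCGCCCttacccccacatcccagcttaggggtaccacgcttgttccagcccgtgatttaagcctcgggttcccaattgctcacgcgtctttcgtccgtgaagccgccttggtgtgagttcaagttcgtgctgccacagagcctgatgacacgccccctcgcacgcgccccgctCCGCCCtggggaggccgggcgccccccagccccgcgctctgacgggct

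Short motifs were searched on both strands. The AP-1 motif was searched as TGANTCA, the motif of RUNX factors as TGTGGT and the motif of TEAD factors as GGAATG. The GC box was searched as GGGCGG, the motif of erythroid-type zinc finger factors (GATA) as AGATAA, and the box found near many start sites (TATA) by the letters TATAAA. No match overlapped another. The Efemp1 promoter held 1 AP-1 match and 1 GC box match, and the Fbln5 promoter held 2 GC box matches. Over all 31365 promoters of the same length, 6.77% held the AP-1 letters and 33.0% the GC box letters. The RUNX letters were held by 13.97%, the TEAD letters by 12.5%, the TATA letters by 12.4% and the GATA letters by 9.95%, and neither promoter held any of these. A match describes the letters only.

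The sites shown next, 1 per gene for genes with a promoter entry and a site of fold enrichment 15 or more missing from at least 1 list, are windows of 201 bases centred on a summit, the point of highest signal of a peak, with the central 21 bases in capitals. The Fbln2 site (chr6:91210870-91211070, plus strand) lay upstream of the gene and was listed in the A-MSCs and P-MSCs. The Fbln5 site (chr12:101762260-101762460, minus strand) lay in an intron and was listed in the fBM-MSCs and vBM-MSCs. The Fbn1 site (chr2:125454840-125455040, minus strand) lay in an intron and was strong in the A-MSC list, weak in the fBM-MSC list and not listed for the other two.
Fbln2 site: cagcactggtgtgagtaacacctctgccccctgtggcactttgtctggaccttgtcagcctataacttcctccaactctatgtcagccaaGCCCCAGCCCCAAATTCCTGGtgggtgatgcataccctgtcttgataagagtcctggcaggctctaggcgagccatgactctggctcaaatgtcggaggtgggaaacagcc
Fbln5 site: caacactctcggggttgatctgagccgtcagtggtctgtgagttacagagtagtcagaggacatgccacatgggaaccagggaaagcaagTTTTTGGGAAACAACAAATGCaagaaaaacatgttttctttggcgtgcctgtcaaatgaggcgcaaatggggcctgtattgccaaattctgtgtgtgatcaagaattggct
Fbn1 site: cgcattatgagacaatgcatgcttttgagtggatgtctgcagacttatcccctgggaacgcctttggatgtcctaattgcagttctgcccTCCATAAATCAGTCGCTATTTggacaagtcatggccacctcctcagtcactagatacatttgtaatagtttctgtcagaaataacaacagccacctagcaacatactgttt

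None of the 3 windows held any of the 6 motifs, which says only that these letters are absent there. Over all 103643 sites, 31.8% of windows of this length held the AP-1 letters, 20.2% the RUNX letters, 19.6% the TEAD letters, 14.1% the GC box letters, 8.77% the TATA letters and 8.37% the GATA letters.

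The exon that separates the transcripts of Fbln2 (chr6:91259630-91259770, plus strand) is a coding exon of 141 bases, a whole number of codons, and belongs to an epidermal growth factor-like repeat of fibulin-2. It is printed in capitals with 10 intronic bases on each side. The printed stretch held 1 RUNX match, as ACCACA from base 95, and no other motif searched. The share over stretches of this length was not computed.
Fbln2 exon: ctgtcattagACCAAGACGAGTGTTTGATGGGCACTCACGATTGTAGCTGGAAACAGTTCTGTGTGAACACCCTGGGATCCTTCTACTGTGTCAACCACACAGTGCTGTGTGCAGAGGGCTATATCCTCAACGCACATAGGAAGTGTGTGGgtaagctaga

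The RNA levels of the 10 genes covered a very wide range. Ranked among the 24411 genes by the mean TPM over the 4 tissues, Lox stood at position 102, Fbln2 at 392, Efemp2 at 417 and Efemp1 at 718. Fbln5 stood at 1528, Loxl1 at 2244, Fbn1 at 5913 and Fbln1 at 8502. Elastin stood at 12653 and Fbn2 at 14624. Lox and the fibulin genes Fbln2, Efemp2 and Efemp1 thus had the most RNA of the 10, Fbln1 had less than Fbn1, and the RNA for the elastic core was close to 0.

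**Figure D1:**
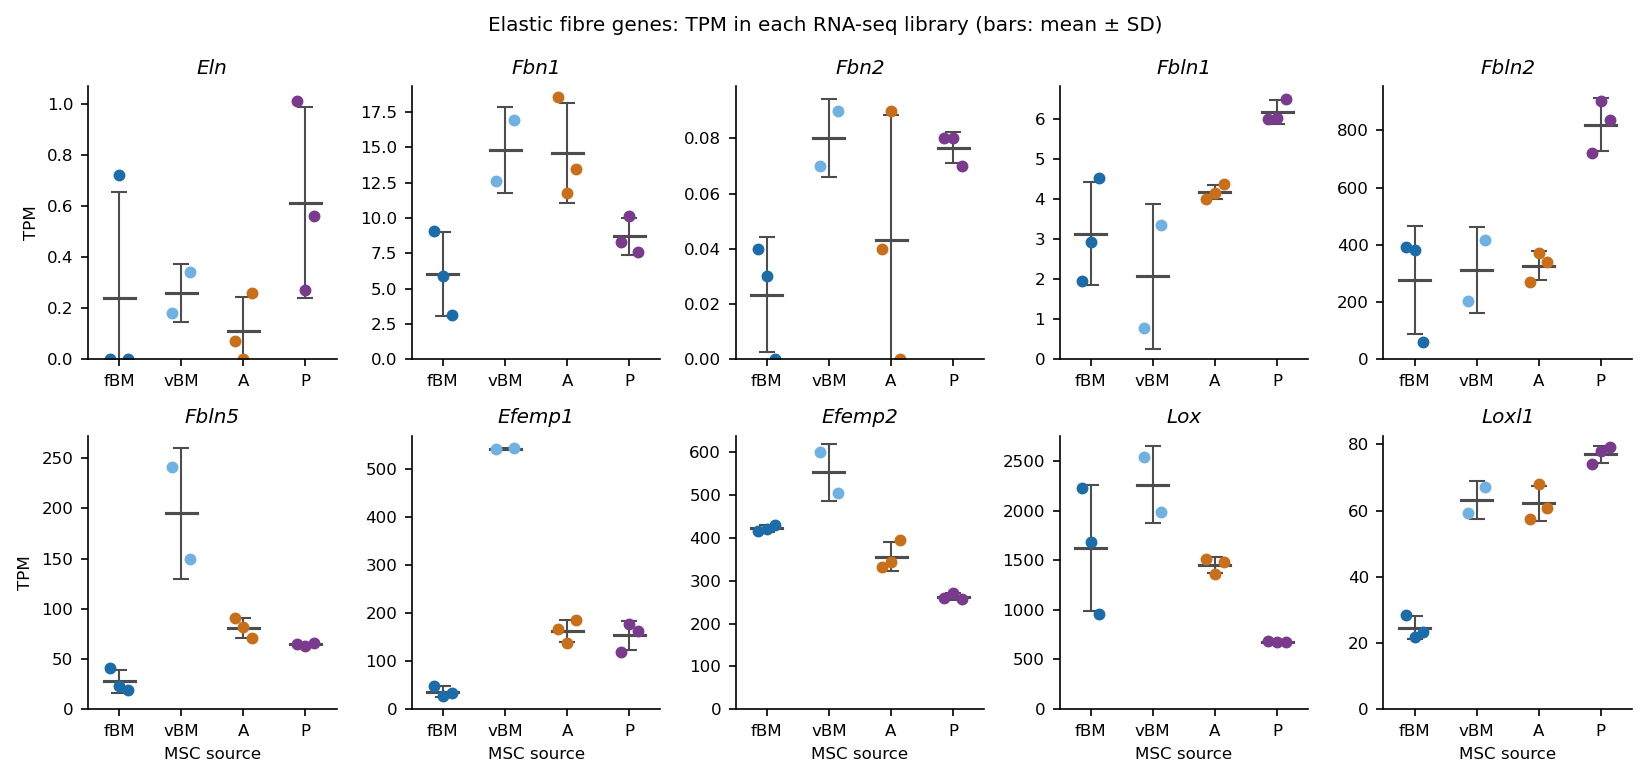
TPM (vertical axes, each starting at 0 with its own scale) of each elastic fibre gene in each RNA-seq library, by tissue source; points are libraries, horizontal bars are means and error bars are SDs (n = 3, vBM-MSCs n = 2). Efemp1 and Fbln5 peak in the vBM-MSCs and are lowest in the fBM-MSCs, Lox and Efemp2 are lowest in the P-MSCs, and Eln and Fbn2 stay at or below 1.01 TPM.

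When the 4 tissues were compared together with edgeR's quasi-likelihood F test, 6 of the 9 tested genes differed at an adjusted p under 0.05 (Fbn1, Fbln5, Efemp1, Efemp2, Lox and Loxl1), where 60.6% of all tested genes did. The share among the elastic fibre genes was therefore close to that of all genes, and the results below are about which gene differed where. All pairwise comparisons came from 1 fit, so comparisons that involve the same tissue share its libraries. The samples are bulk cultures, and fewer cells that make an RNA cannot be told apart from less of that RNA per cell. The p-values measure the spread between cultures prepared separately, of which the vBM-MSCs have 2.

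Between the marrow sites, 4 genes were lower in the fBM-MSCs than in the vBM-MSCs (Fbn1, Fbln5, Efemp1 and Loxl1) and none was higher, against a background of 12.8% of all genes called in either direction, 7.56% lower and 5.24% higher in the fBM-MSCs. The same 4 genes were lower in the fBM-MSCs than in the A-MSCs, where 40.9% of all genes were called, 20.3% lower and 20.6% higher. Against the P-MSCs, 4 genes were lower in the fBM-MSCs (Fbln2, Fbln5, Efemp1 and Loxl1) and 2 were higher (Efemp2 and Lox), with 47.7% of all genes called, 23.0% lower and 24.7% higher. The vBM-MSCs exceeded the A-MSCs in 3 genes (Fbln5, Efemp1 and Efemp2) and were lower in none, with a background of 25.6%, of which 13.2% were higher and 12.4% lower. They exceeded the P-MSCs in 4 genes (Fbln5, Efemp1, Efemp2 and Lox) and were lower in Fbln1, with a background of 38.7%, of which 21.0% were higher and 17.7% lower. The A-MSCs exceeded the P-MSCs in Fbn1, Efemp2 and Lox and were lower in none, with a background of 30.9%, of which 16.0% were higher and 14.9% lower. With marrow set against non-marrow MSCs, Efemp2 and Lox were higher in marrow and Fbln1 and Loxl1 lower, with 47.2% of all genes called, 24.8% higher and 22.4% lower.

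The median log2 fold change of the 9 genes was −0.44 between fBM-MSCs and vBM-MSCs, −0.48 between fBM-MSCs and A-MSCs and −1.10 between fBM-MSCs and P-MSCs. For the vBM-MSCs it was 0.51 against the A-MSCs and 0.84 against the P-MSCs. The A-MSCs gave 0.29 against the P-MSCs, and marrow gave −0.16 against non-marrow. The median over all tested genes lay between −0.01 and 0.03 in these comparisons.

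**Figure D2:**
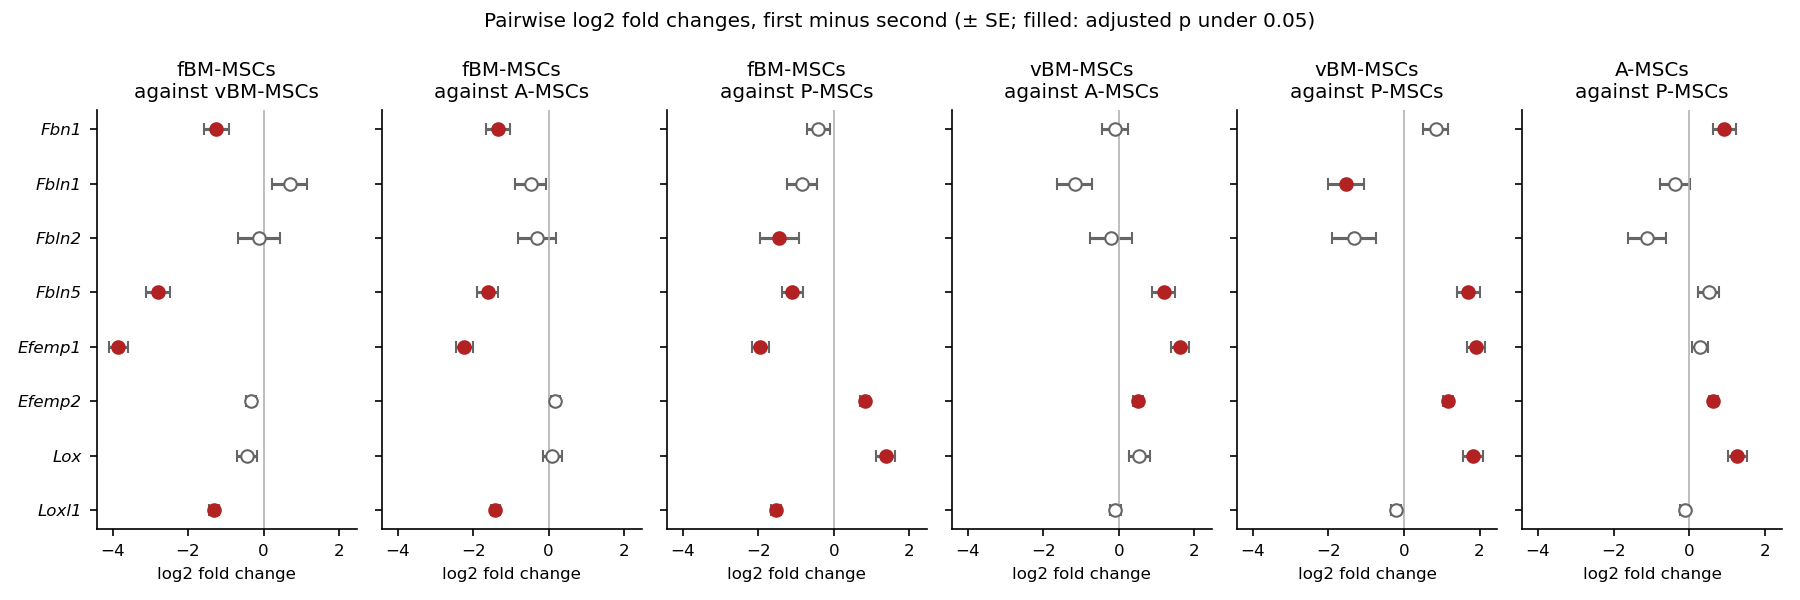
Log2 fold change (horizontal axes, first tissue minus second, edgeR) with its SE for 8 of the tested elastic fibre genes in each of the 6 pairwise comparisons; filled points have an adjusted p under 0.05. The fBM-MSCs sit to the left of 0 for Fbln5, Efemp1 and Loxl1 against all 3 other tissues, and Lox and Efemp2 sit to the right of 0 for all 3 tissues against the P-MSCs.

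Eln encodes tropoelastin and lies on chromosome 5 (chr5:134702595-134747323, minus strand). The fBM-MSC libraries held 0, 57 and 0 Eln counts (0, 0.72 and 0 TPM). The vBM-MSC libraries held 13 and 30 counts (0.18 and 0.34 TPM), the A-MSC libraries 5, 0 and 24 (0.07, 0 and 0.26 TPM) and the P-MSC libraries 102, 21 and 49 (1.01, 0.27 and 0.56 TPM). The values of the P-MSCs overlapped those of the fBM-MSCs and vBM-MSCs, and the lowest P-MSC library stood next to the highest A-MSC library. A count of 0 allowed up to 0.153 and 0.0807 CPM (counts scaled to library size) in the 2 fBM-MSC libraries concerned and 0.0754 in the A-MSC library. These limits cover counting error only. The 4 tissues did not differ in Eln beyond the spread between libraries (adjusted p = 0.592, edgeR), and the comparison of fBM-MSCs with P-MSCs, not called with all libraries (adjusted p = 0.529), was called without the second fBM-MSC library (adjusted p = 0.0199, edgeR), which held all the fBM-MSC counts. Since both other fBM-MSC libraries are at 0, no fold is given.

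Fbn1 encodes fibrillin-1, the main structural protein of microfibrils in adult tissue, on chromosome 2 (chr2:125300594-125506438, minus strand). It stood at 9.06, 5.86 and 3.13 TPM in the fBM-MSCs, 12.6 and 17.0 TPM in the vBM-MSCs, 18.6, 11.8 and 13.5 TPM in the A-MSCs and 8.33, 10.1 and 7.60 TPM in the P-MSCs. The fBM-MSCs and P-MSCs overlapped, as did the vBM-MSCs and A-MSCs, and every library of the higher pair was above every library of the lower pair. The 4 tissues differed (adjusted p = 0.00867, edgeR). Fbn1 was lower in the fBM-MSCs than in the A-MSCs by 1.34 ± 0.31 (log2 ± SE, adjusted p = 0.00557) and than in the vBM-MSCs by 1.25 ± 0.34 (adjusted p = 0.0340, edgeR).

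The call between the marrow sites was lost without the second fBM-MSC library (adjusted p = 0.0914), the first vBM-MSC library (0.0966) or the second (0.101), and also without the third A-MSC library (0.0505) or without the first (0.0528) or the third (0.0501) P-MSC library, which enter through the shared estimate of spread. Here and below, leaving out a vBM-MSC library leaves 1, assumed in the fit to vary like the libraries of the other tissues. Fbn1 exceeded the P-MSCs by 0.94 ± 0.31 in the A-MSCs (adjusted p = 0.0389, edgeR). That call was lost without the first A-MSC library, without the third one and without any single P-MSC library, with adjusted p between 0.0614 and 0.135. The levels of fBM-MSCs and P-MSCs did not differ beyond their spread (adjusted p = 0.301), but did without the first fBM-MSC library (adjusted p = 0.0192, edgeR), and the vBM-MSCs against the P-MSCs missed the threshold (log2 difference 0.84 ± 0.34, adjusted p = 0.0702), which they passed without the first fBM-MSC library (adjusted p = 0.0193) and without the third (adjusted p = 0.0114), and with all libraries in DESeq2 (0.84, adjusted p = 0.0280). Marrow against non-marrow was not called (−0.25 ± 0.23, adjusted p = 0.397) except without the first fBM-MSC library (−0.48, adjusted p = 0.0477, edgeR).

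Fbn2, encoding fibrillin-2 of developing microfibrils, was at 0.09 TPM or less in every library, with 0 to 26 counts. Because of these counts it was not tested. The ratio of Fbn1 to Fbn2 in TPM ran from 104 to 464 over the 9 libraries in which Fbn2 was above 0 TPM. With so few Fbn2 counts these ratios are rough, and no order of tissues is read from them.

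Fbln1 encodes fibulin-1, a fibulin of basement membranes and elastic tissue. It measured 1.96, 2.93 and 4.51 TPM in the fBM-MSCs, 0.78 and 3.35 TPM in the vBM-MSCs, 4.0, 4.14 and 4.37 TPM in the A-MSCs and 5.98, 6.02 and 6.50 TPM in the P-MSCs. All P-MSC libraries were above all others, whereas the marrow libraries were scattered. Fbln1 was lower in marrow than in non-marrow MSCs by 1.01 ± 0.31 on the log2 scale (adjusted p = 0.0184, edgeR) and lower in the vBM-MSCs than in the P-MSCs by 1.54 ± 0.47 (adjusted p = 0.0235). Without the second vBM-MSC library the marrow value was −1.64 (adjusted p = 0.000622) and the vBM-MSC value against the P-MSCs −2.79 (adjusted p = 0.00115, edgeR). The latter was −0.89 without the first vBM-MSC library (adjusted p = 0.114), and it also missed the threshold without the third P-MSC library (adjusted p = 0.0542, edgeR).

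The 4 tissues together missed the threshold for Fbln1 narrowly (adjusted p = 0.0555). They passed it without the second vBM-MSC library (adjusted p = 0.00204), without the third fBM-MSC library (0.0246), with DESeq2 (0.0169) and with no filter on low counts (0.0371). Without the second vBM-MSC library, the lone vBM-MSC library left was called lower than the fBM-MSCs (log2 fold change 1.95 in favour of the fBM-MSCs, adjusted p = 0.0160) and the A-MSCs (−2.43, adjusted p = 0.00527, edgeR), where the full set gave 0.69 ± 0.46 and −1.17 ± 0.47 with neither called by edgeR. DESeq2 called the vBM-MSCs lower than the A-MSCs with all libraries (−1.19, adjusted p = 0.0409). The values without the second library rest on 1 vBM-MSC library, which the fit assumes to vary like the libraries of the other tissues. The fBM-MSCs against the P-MSCs (−0.85 ± 0.40, adjusted p = 0.104) were called when the third fBM-MSC library (−1.21, adjusted p = 0.0374) or either vBM-MSC library (adjusted p = 0.0213 and 0.0223) was left out, and by limma on log2(TPM + 1) (adjusted p = 0.0356) but not on log2(TPM + 0.1) (adjusted p = 0.0655).

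Fbln2 encodes fibulin-2, which binds tropoelastin and fibrillin-1 (chr6:91212764-91272540, plus strand). The fBM-MSC libraries gave 391, 382 and 59.5 TPM and the vBM-MSC libraries 205 and 417 TPM. The A-MSC libraries gave 270, 371 and 341 TPM and the P-MSC libraries 720, 902 and 837 TPM. Every P-MSC library was above every other library, and the 3 other tissues overlapped. Only the fBM-MSC comparison passed the threshold, with a log2 difference from the P-MSCs of −1.44 ± 0.51 (adjusted p = 0.0360, edgeR), and it was lost without any 1 of the P-MSC libraries (adjusted p = 0.0590 to 0.0849).

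The low value of the third fBM-MSC library, which also stood apart in osteoblast markers, moved the Fbln2 results. Without that library the 4 tissues differed (adjusted p = 0.00062 against 0.0682 with it). The P-MSCs were then higher than the fBM-MSCs (log2 difference −0.96, adjusted p = 0.00429), the vBM-MSCs (−1.33, adjusted p = 0.000707) and the A-MSCs (−1.12, adjusted p = 0.00127, edgeR). Marrow against non-marrow became −0.58 (adjusted p = 0.00877) from −0.82 ± 0.38 (adjusted p = 0.0967). The 4 tissues were also called without the first fBM-MSC library (adjusted p = 0.0463), with no filter on low counts (0.0284) and with limma on log2(TPM + 1) (0.0429). With the compared groups only, the P-MSCs were called higher than the vBM-MSCs (adjusted p = 0.00280) and the A-MSCs (adjusted p = 9.02e-06, edgeR). Fbln2 made up 37.0 to 41.4% of the summed TPM of the 10 genes in the P-MSCs and at most 15.6% in any other library.

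The tables give for each gene a length averaged over its transcripts by their abundance, and this length can shift when the share of each transcript shifts. Of the 3 elastic fibre genes with several counted transcripts (Fbln2, Efemp2 and Lox), only Fbln2 differed between the tissues (limma's moderated F test, adjusted p = 0.00415), where 2.59% of the 3593 genes tested did. The mean length was 4359 ± 2.26 bases (SD, n = 3) in the fBM-MSCs, 4396 ± 1.82 (n = 2) in the vBM-MSCs, 4372 ± 6.40 (n = 3) in the A-MSCs and 4347 ± 1.54 (n = 3) in the P-MSCs. Fbln2 was also called when any 1 library was left out (adjusted p = 0.000903 to 0.0183, limma). Neither Efemp2 (adjusted p = 0.645) nor Lox (adjusted p = 0.655, limma) passed the threshold.

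The counted Fbln2 transcripts were 4336 and 4477 bases long and differed by the exon shown above, so the length gives the share of the longer form. That form made up 16.8, 14.7 and 17.8% of Fbln2 transcripts in the fBM-MSCs and 41.96 and 43.8% in the vBM-MSCs. It made up 30.9, 22.5 and 23.8% in the A-MSCs and 6.50, 8.68 and 7.67% in the P-MSCs. No tissue overlapped another. The exon was most included in the vBM-MSCs and least in the P-MSCs, where Fbln2 RNA as a whole was highest. The share rests on RSEM's division of reads between the transcripts, and the reads over the exon were not examined.

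**Figure D3:**
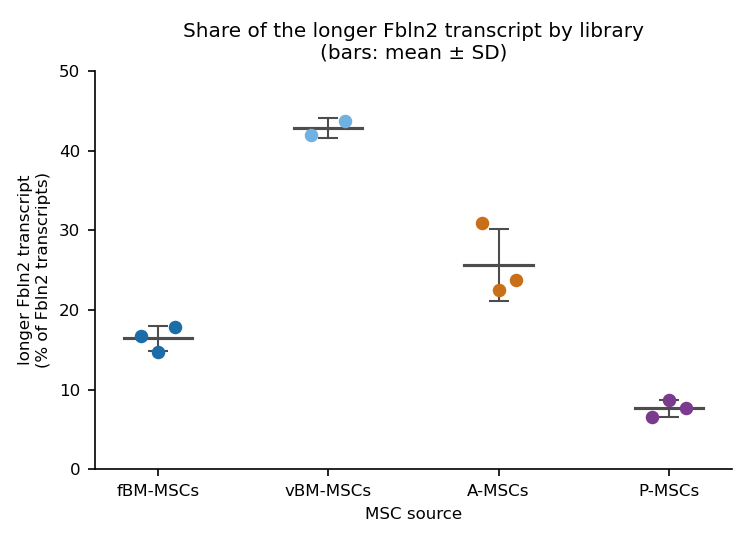
Share of the longer Fbln2 transcript (vertical axis, percent of Fbln2 transcripts, from the abundance-weighted length) in each library by tissue; points are libraries, bars are means and error bars SDs. The vBM-MSC libraries lie at 41.96 and 43.8%, above all others, and the P-MSC libraries at 6.50 to 8.68%, below all others.

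Fbln5 encodes fibulin-5, which tethers tropoelastin to microfibrils and cells and is required for normal elastic fibres (chr12:101746565-101819119, minus strand). It stood at 40.7, 22.7 and 19.3 TPM in the fBM-MSCs, 241 and 149 TPM in the vBM-MSCs, 90.5, 81.4 and 70.4 TPM in the A-MSCs and 64.4, 62.6 and 66.2 TPM in the P-MSCs. The 4 tissues did not overlap, in the order vBM-MSCs, A-MSCs, P-MSCs and fBM-MSCs, and differed together (adjusted p = 0.000107, edgeR). The neighbours A-MSCs and P-MSCs did not differ beyond their spread (0.52 ± 0.27, adjusted p = 0.176). Fbln5 was 6.96-fold lower in the fBM-MSCs than in the vBM-MSCs (log2 fold change −2.80 ± 0.31, adjusted p = 0.000275, edgeR), 3.05-fold lower than in the A-MSCs (adjusted p = 0.000931) and 2.14-fold lower than in the P-MSCs (adjusted p = 0.00684). The vBM-MSCs exceeded the P-MSCs 3.26-fold (adjusted p = 0.00107, edgeR) and the A-MSCs 2.28-fold (adjusted p = 0.0142). The excess over the A-MSCs was lost without the first vBM-MSC library (log2 fold change 0.69, adjusted p = 0.158) and just lost without the third A-MSC library (1.11, adjusted p = 0.0506, edgeR).

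Efemp1 encodes fibulin-3 and varied most of all 10 genes (chr11:28853205-28926743, plus strand). It measured 48.1, 26.9 and 34.3 TPM in the fBM-MSCs and 542 and 543 TPM in the vBM-MSCs. It measured 167, 139 and 185 TPM in the A-MSCs and 120, 178 and 164 TPM in the P-MSCs. The vBM-MSCs were above and the fBM-MSCs below all other libraries, while the A-MSCs and P-MSCs overlapped. Efemp1 was 14.4-fold lower in the fBM-MSCs than in the vBM-MSCs (log2 fold change −3.85 ± 0.26, adjusted p = 1.45e-05, edgeR), 4.70-fold lower than in the A-MSCs (−2.23 ± 0.23, adjusted p = 2.88e-05) and 3.85-fold lower than in the P-MSCs (−1.94 ± 0.23, adjusted p = 3.91e-05). The vBM-MSCs exceeded the A-MSCs 3.07-fold (adjusted p = 0.000768) and the P-MSCs 3.75-fold (adjusted p = 0.000112, edgeR), and A-MSCs and P-MSCs were not called apart (adjusted p = 0.340). Since the marrow sites lay at both ends of the order, marrow against non-marrow gave −0.16 ± 0.16 (adjusted p = 0.440).

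Efemp2 encodes fibulin-4, which binds lysyl oxidase and is essential for elastic fibre assembly (chr19:5473946-5482520, plus strand). It was the most even of the abundant genes, at 415, 421 and 431 TPM in the fBM-MSCs, 601 and 505 TPM in the vBM-MSCs, 331, 343 and 394 TPM in the A-MSCs and 260, 271 and 256 TPM in the P-MSCs. In TPM the 4 tissues did not overlap. They differed together by edgeR (adjusted p = 0.000163), which scales the libraries in another way than TPM, so that order need not hold library by library there. The P-MSCs were lower than the fBM-MSCs by 0.82 ± 0.12 (adjusted p = 0.000231), than the vBM-MSCs by 1.16 ± 0.13 (adjusted p = 6.10e-05) and than the A-MSCs by 0.64 ± 0.12 on the log2 scale (adjusted p = 0.00261, edgeR).

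Of the neighbours in the order of Efemp2 levels, vBM-MSCs and fBM-MSCs were not called apart (−0.34 ± 0.14, adjusted p = 0.125, edgeR), but they were without the second vBM-MSC library (−0.55, adjusted p = 0.0183) and with limma on log2(TPM + 1) (−0.38, adjusted p = 0.0253). The fBM-MSCs and A-MSCs were not called apart by edgeR (0.18 ± 0.12, adjusted p = 0.272) but were by limma on log2(TPM + 1) (0.25, adjusted p = 0.0438). The vBM-MSCs exceeded the A-MSCs by 0.51 ± 0.13 (adjusted p = 0.0167). That call was lost without the first vBM-MSC library (0.28, adjusted p = 0.155) or without the first (adjusted p = 0.0548) or second A-MSC library (adjusted p = 0.0565, edgeR). The ratio of Efemp2 to Efemp1 was 8.65 to 15.7 in the fBM-MSCs, 0.93 to 1.11 in the vBM-MSCs, 1.99 to 2.48 in the A-MSCs and 1.53 to 2.17 in the P-MSCs.

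Lox encodes lysyl oxidase, the enzyme that oxidises lysines of tropoelastin and collagen so that they cross-link. The fBM-MSC libraries stood at 2225, 1686 and 958 TPM, the vBM-MSC libraries at 2539 and 1985 TPM, the A-MSC libraries at 1510, 1357 and 1480 TPM and the P-MSC libraries at 690, 673 and 676 TPM. All P-MSC libraries were below all others, and the fBM-MSCs overlapped both other tissues. The P-MSCs were 2.60-fold lower than the fBM-MSCs (log2 difference, fBM-MSCs minus P-MSCs, 1.38 ± 0.25, adjusted p = 0.000831), 3.53-fold lower than the vBM-MSCs (1.82 ± 0.27, adjusted p = 0.000338) and 2.43-fold lower than the A-MSCs (1.28 ± 0.25, adjusted p = 0.00295, edgeR). Without the third fBM-MSC library the fBM-MSC value was 1.65 (adjusted p = 1.36e-05). Lox was higher in marrow than in non-marrow MSCs by 0.96 ± 0.18 (adjusted p = 0.00116).

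Among the 3 higher tissues no Lox comparison passed the threshold (adjusted p = 0.168 to 0.778). The vBM-MSCs were called above the fBM-MSCs without the first fBM-MSC library (log2 fold change −0.78, adjusted p = 0.0447) and above the A-MSCs without the third (0.54, adjusted p = 0.0256, edgeR). Lox alone made up 62.5 to 70.4% of the summed TPM of the 10 genes in the fBM-MSCs, 53.8 to 60.4% in the vBM-MSCs, 57.1 to 61.7% in the A-MSCs and 30.8 to 35.5% in the P-MSCs.

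Loxl1 encodes the lysyl oxidase-like enzyme that is guided to elastin by fibulin-5 (chr9:58287723-58313212, minus strand). It measured 28.5, 21.8 and 23.3 TPM in the fBM-MSCs, 59.1 and 67.2 TPM in the vBM-MSCs, 57.6, 68.1 and 60.9 TPM in the A-MSCs and 74.1, 77.9 and 79.1 TPM in the P-MSCs. In TPM the fBM-MSCs were below all other libraries and the P-MSCs above, while the vBM-MSCs and A-MSCs overlapped. The order of the P-MSCs need not hold on the scale of edgeR. Loxl1 was lower in the fBM-MSCs than in the vBM-MSCs by 1.32 ± 0.14 (adjusted p = 0.000203), than in the A-MSCs by 1.41 ± 0.13 (adjusted p = 1.08e-05) and than in the P-MSCs by 1.52 ± 0.13 on the log2 scale (adjusted p = 3.66e-06, edgeR). No comparison among the other 3 tissues passed the threshold (adjusted p = 0.257 to 0.660).

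The cross-linking enzymes thus took different orders. The ratio of Lox to Loxl1 in TPM was 78.1, 77.3 and 41.1 in the fBM-MSCs, 43.0 and 29.6 in the vBM-MSCs, 26.2, 19.9 and 24.3 in the A-MSCs and 9.31, 8.63 and 8.55 in the P-MSCs. The P-MSC ratios were below those of every other tissue.

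Markers of other cell types moved with several of these results. The 7 smooth muscle genes (all above 0 in every tissue) summed to 1085 to 1477 TPM in the fBM-MSCs, where Fbln5, Efemp1 and Loxl1 were lowest, against 6224 to 7744 TPM in the vBM-MSCs, 12373 to 12969 TPM in the A-MSCs and 4569 to 5297 TPM in the P-MSCs. The 4 osteoblast genes summed to 419 to 2312 TPM in the fBM-MSCs and 35.3 to 481 TPM in the vBM-MSCs, where mean Efemp2 and Lox were highest, and to at most 1.44 TPM in the A-MSCs, with 1 of the 4 at 0 in every library, and 0.16 TPM in the P-MSCs, with 2 of the 4 at 0. Within the fBM-MSCs, the library with the highest osteoblast sum had the lowest Lox, 958 TPM. The 5 genes of dividing cells summed to 369 to 419 TPM in the P-MSCs, where Lox and Efemp2 were lowest, against 196 to 228 TPM in the A-MSCs, 48.4 to 51.7 TPM in the vBM-MSCs and 24.9 to 42.2 TPM in the fBM-MSCs. Their part in the results was not tested.

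The genes whose log2(TPM + 1) followed a member most closely over the 11 libraries, which share tissues, were searched among 8854 genes and are given as a description. Eln was followed by Kat7, Fbxo46 and Map3k7 (Pearson r = 0.86, 0.85 and 0.83), and Fbn1 by Yaf2, Elovl1 and Mamld1 (r = 0.94 for each). Fbln1 was followed by Trmt112 (r = 0.97), Fbln2 by Erlin1 (r = 0.97), Efemp1 by Tubb2a (r = 0.98), Efemp2 by Kctd12 (r = 0.98) and Loxl1 by Jagn1 (r = 0.98). Fbln5 was followed by Arf2, Tubb2a and Nkain4 (r = 0.98, 0.98 and 0.97), and Lox by Mustn1, Arc and Rnf149 (r = 0.98, 0.98 and 0.97). Among the members themselves, Fbln5 and Efemp1 had the highest r at 0.96, followed by Efemp2 and Lox at 0.86, while Fbln1 and Lox had −0.88.

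Open chromatin was examined as summits with −log10 q of at least 7. A summit within 1 kb of an annotated transcription start site was listed for 7 of the 10 genes in the fBM-MSCs and for 8 in the vBM-MSCs, A-MSCs and P-MSCs. Over all 24892 annotated genes the shares were 50.7, 51.6, 52.7 and 51.7% in the same order. Peaks had been called on 1 pooled list per tissue, so there is no replicate spread and no test, and fold enrichment can move with the depth of a pool. The median fold enrichment of all summits was 8.46 in the fBM-MSCs and vBM-MSCs, 9.20 in the A-MSCs and 9.56 in the P-MSCs.

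Eln and Fbn2, the genes with the least RNA, had little open chromatin at their start. Eln had no listed summit from 10 kb before to 10 kb past the gene in any tissue, and the weaker deposited summits there numbered 0 in the fBM-MSCs, 1 in the vBM-MSCs, 2 in the A-MSCs and 3 in the P-MSCs, at a fold enrichment of at most 4.78. Fbn2 had start site summits below the threshold only (fold enrichment 3.68, 4.05, 4.78 and 4.05 in the fBM-MSCs, vBM-MSCs, A-MSCs and P-MSCs). Fbn1, at a moderate RNA level, had start site summits in all lists, at fold enrichments of 9.56, 14.3, 18.4 and 18.0 in the same order.

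At the Fbln5 start the fold enrichment was 8.09 in the fBM-MSCs, where its RNA was lowest, 19.9 in the vBM-MSCs, 19.1 in the A-MSCs and 34.6 in the P-MSCs. The highest RNA level (vBM-MSCs) and the highest enrichment (P-MSCs) were thus in different tissues. Efemp1 had no start site summit of any strength in the fBM-MSCs and weak ones of 6.62, 8.46 and 7.36 in the vBM-MSCs, A-MSCs and P-MSCs, although its RNA in the vBM-MSCs was more than that in the A-MSCs. Fbln2 had 11.04, 16.6, 23.2 and 30.5 and Fbln1 had 11.4, 6.62, 10.3 and 23.2 in the order fBM-MSCs, vBM-MSCs, A-MSCs and P-MSCs, both highest in the P-MSCs as their RNA was. Efemp2, with 11.4, 9.93, 11.4 and 8.46 in that order, was more even than the other fibulin genes.

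The lysyl oxidase genes had strong start site summits in every list. Those of Lox had fold enrichments of 22.1, 27.2, 31.3 and 34.6 in the fBM-MSCs, vBM-MSCs, A-MSCs and P-MSCs, so that the list with the highest value belonged to the tissue with the lowest Lox RNA. Those of Loxl1 had 19.9, 20.6, 24.6 and 22.1. An intronic Loxl1 site 13668 bases past the start had 6.99, 10.3, 30.9 and 40.5, rising in the order of mean Loxl1 RNA except that vBM-MSCs and A-MSCs changed places.

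**Figure D4:**
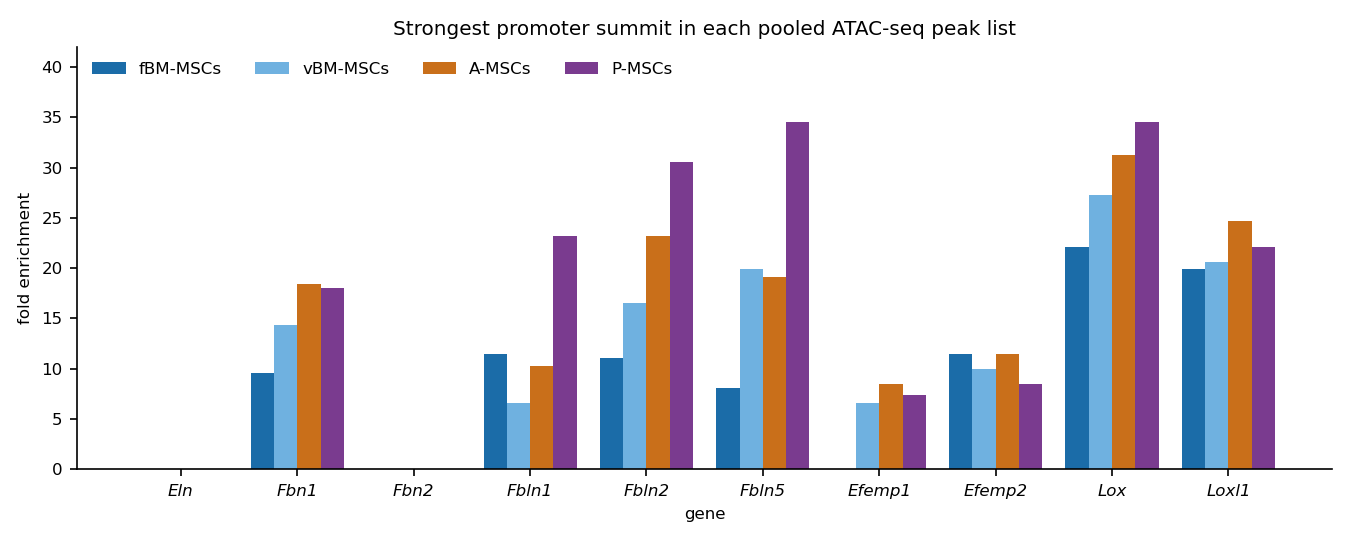
Fold enrichment (vertical axis, a ratio without unit) of the strongest ATAC-seq summit with −log10 q of at least 7 within 1 kb of a start site of each elastic fibre gene, in the pooled list of each tissue; no bar means no such summit. Eln and Fbn2 have no bar, Efemp1 has none in the fBM-MSCs, and Fbln5 runs from 8.09 in the fBM-MSCs to 34.6 in the P-MSCs.

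Counted from 10 kb before to 10 kb past each gene, the 10 genes held 58 summits in the fBM-MSCs, 75 in the vBM-MSCs, 122 in the A-MSCs and 94 in the P-MSCs. The whole lists held 64300, 59536, 71345 and 64057 summits in the same order, so the A-MSC list was also the longest. Linking summits of the 4 lists that lay within 250 bp gave 149 sites, of which 45.0% were in 1 list, 22.1% in 2, 9.40% in 3 and 23.5% in all 4. Over all 103643 sites the shares were 37.0, 18.9, 13.9 and 30.2%. A large part of the sites in 1 list lay at Fbln2 and were listed for the A-MSCs only. The shares of the 10 genes therefore depend on that gene.

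Fbln2 accounted for much of the excess in the A-MSCs. Its window of 79.8 kb held 46 summits in the A-MSCs, 17 in the P-MSCs, 6 in the fBM-MSCs and 5 in the vBM-MSCs. By number of summits it ranked 11th of 24892 genes in the A-MSCs and 189th in the P-MSCs. Within the gene body there were 30 summits in the A-MSCs, with a median fold enrichment of 6.25, and 6, 2 and 2 in the P-MSCs, fBM-MSCs and vBM-MSCs. Fbln2 RNA in the A-MSCs was below that in the P-MSCs in every library.

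The strong Fbln2 sites were shared or upstream. A site 5045 bases before the start had fold enrichments of 15.1, 19.5, 35.7 and 45.3 in the fBM-MSCs, vBM-MSCs, A-MSCs and P-MSCs. The site 1794 bases before the start, whose sequence is given above, had 29.1 in the A-MSCs and 30.9 in the P-MSCs and was not listed in either marrow tissue. An intronic site in all 4 lists had 17.3, 19.9, 41.6 and 23.5, and its summit lay 131 bases past the end of the exon that separates the Fbln2 transcripts.

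**Figure D5:**
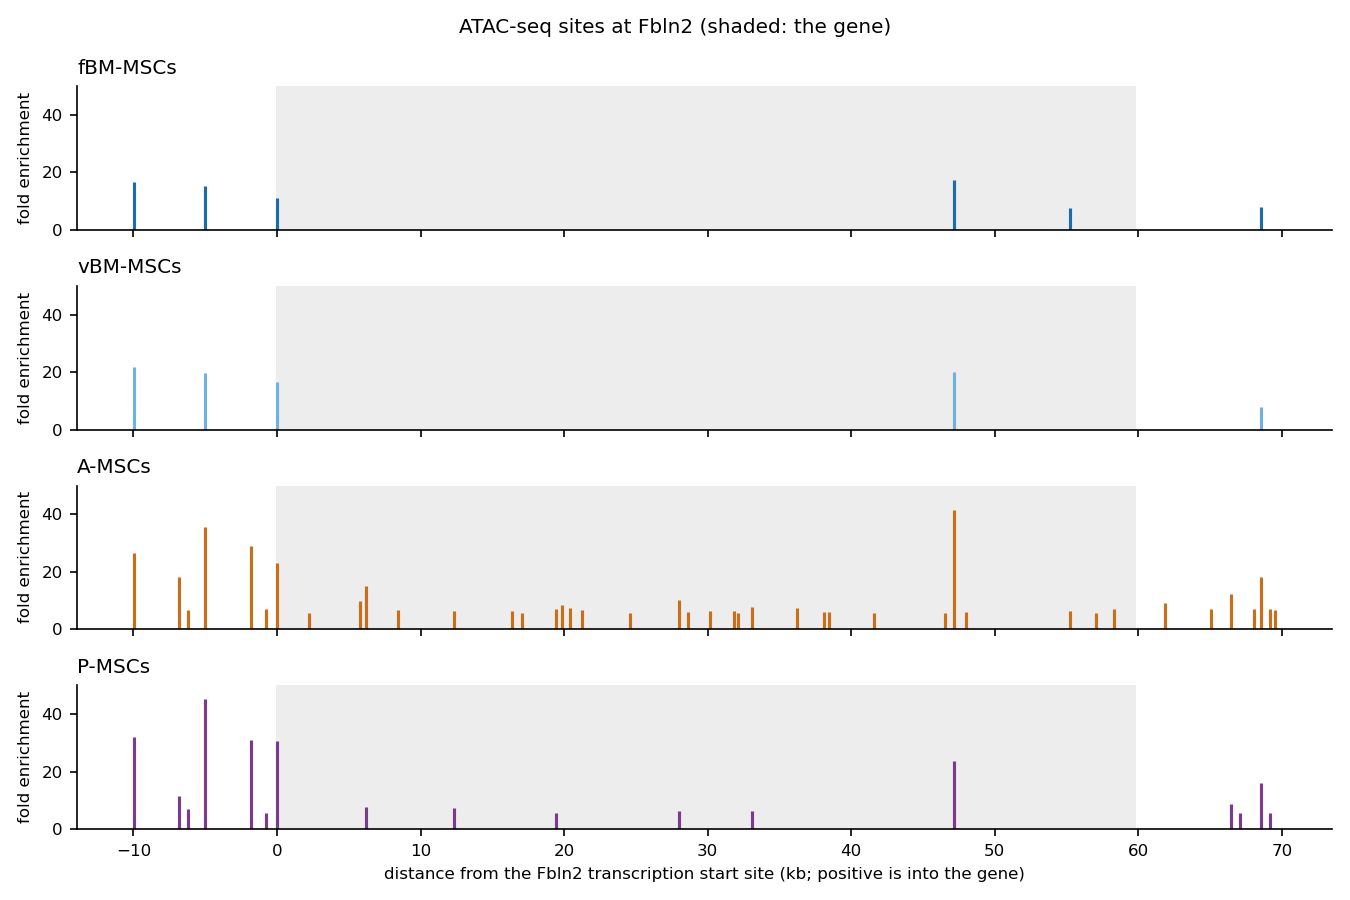
ATAC-seq sites with −log10 q of at least 7 along Fbln2 in the pooled list of each tissue; horizontal axis, distance from the transcription start site in kb; vertical axis, fold enrichment (a ratio without unit); shading marks the gene. The A-MSC list has many weak sites within the gene, and the site 1794 bases before the start appears in the A-MSCs and P-MSCs.

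At Fbln5 the site shown above had a fold enrichment of 13.6 in the fBM-MSCs and 18.8 in the vBM-MSCs and was not listed in the other tissues. Another intronic site, 25621 bases past the start, had 13.98, 17.7 and 12.5 in the vBM-MSCs, A-MSCs and P-MSCs and was not listed in the fBM-MSCs, and one 20655 bases past the start had 5.52, 12.9, 28.0 and 22.8 in the fBM-MSCs, vBM-MSCs, A-MSCs and P-MSCs. The vBM-MSCs were listed at all 3 of these sites, which are not all sites of the gene. Intronic sites 52455 and 41360 bases past the start lacked them and were listed only in the fBM-MSCs (9.93) and only in the A-MSCs (7.73). From 10 kb before to 10 kb past Fbln5 there were 6, 9, 7 and 5 summits in the fBM-MSCs, vBM-MSCs, A-MSCs and P-MSCs. At Fbn1 the site shown above had 35.0 in the A-MSCs and 5.52 in the fBM-MSCs, and the gene held 23, 25, 30 and 30 summits in the 4 lists. At Efemp1 the strongest site was intronic, 53264 bases past the start, and was listed in every tissue (15.1, 9.57, 21.0 and 9.93), with the vBM-MSCs at the lower end despite their high RNA.

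The other genes of elastic fibre assembly were taken from 4 lists. Between marrow and non-marrow, 4 of the 4 osteoblast markers were higher in marrow and 7 of the 7 smooth muscle markers and 5 of the 5 markers of dividing cells were lower, and their part in the marrow differences of these lists was not tested. Of the 22 microfibril and elastic fibre associated glycoproteins, 16 were tested and 14 differed between the 4 tissues, with 60.6% of all genes called. Between marrow and non-marrow, 8 were higher in marrow and 2 lower (all genes 24.8 and 22.4%). Mfap2, a microfibril glycoprotein that binds fibrillin and tropoelastin, stood at 23.6 ± 0.21 TPM (SD, n = 2) in the vBM-MSCs, 4.59 ± 0.71 (n = 3) in the fBM-MSCs and below 3 TPM in every A-MSC and P-MSC library. Adamtsl4, which binds fibrillin-1, was higher in marrow by 2.18 ± 0.11 on the log2 scale (adjusted p = 1.53e-07, edgeR) and lowest in the A-MSCs at 2.77 ± 0.39 TPM. Fbln7, a further fibulin, was higher in marrow by 3.67 ± 0.44 (adjusted p = 4.68e-05). Ltbp1, which holds latent TGF-β on microfibrils, was highest in the P-MSCs at 94.9 ± 2.47 TPM and lowest in the A-MSCs at 19.7 ± 6.17 TPM (n = 3 for each, adjusted p = 0.000279, edgeR).

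Of the 10 genes for lysyl oxidase maturation and the other lysyl oxidases, 9 were tested and 7 differed between the tissues, with 60.6% of all genes called. Between marrow and non-marrow 4 were higher in marrow and 2 lower (all genes 24.8 and 22.4%). Periostin (Postn), which helps to activate lysyl oxidase, lay at 53.2 to 357 TPM in the fBM-MSCs, 54.4 and 63.0 TPM in the vBM-MSCs, 31.2 to 68.3 TPM in the A-MSCs and at most 0.69 TPM in the P-MSCs, where Lox was also lowest. Tll1, a protease related to the one that cleaves the Lox propeptide, was highest in the P-MSCs at 72.9 ± 6.70 TPM (n = 3), stood at 4.58 ± 1.94 TPM in the fBM-MSCs (n = 3) and 4.47 ± 1.10 TPM in the vBM-MSCs (n = 2), and was lower in marrow by 2.87 ± 0.22 on the log2 scale (adjusted p = 1.92e-06, edgeR). Fibronectin (Fn1) was higher in marrow by 2.11 ± 0.17 (adjusted p = 2.65e-06), and Loxl2, a lysyl oxidase of basement membranes, was highest in the A-MSCs at 156 ± 14.03 TPM and lowest in the P-MSCs at 25.5 ± 4.61 TPM (n = 3 for each).

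Of the 8 genes for the tropoelastin chaperone, the elastin receptor and elastin-binding integrins, 7 were tested and 5 differed between the tissues, with 60.6% of all genes called. Between marrow and non-marrow 5 were higher in marrow and none lower (all genes 24.8 and 22.4%). The integrin genes Itgb3 and Itgb5 were higher in marrow by 3.19 ± 0.36 (adjusted p = 2.71e-05) and 1.61 ± 0.09 (adjusted p = 2.23e-07, edgeR). Ctsa and Glb1, which contribute to the elastin receptor complex and act in lysosomes, were higher by 0.90 ± 0.12 (adjusted p = 0.000101) and 0.57 ± 0.12 (adjusted p = 0.00253).

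Of the 16 elastases and their inhibitors, 11 were tested and 10 differed between the tissues, with 60.6% of all genes called, and 7 were higher in marrow and none lower (all genes 24.8 and 22.4%). Mmp2, a gelatinase that cleaves elastin, stood at 190 to 486 TPM in the fBM-MSCs and 17.7 to 24.9 TPM in the P-MSCs and was higher in marrow by 2.70 ± 0.24 (adjusted p = 4.55e-06, edgeR). Timp3, an inhibitor of metalloproteinases, was higher in marrow by 1.55 ± 0.15 (adjusted p = 7.81e-06). Mmp9, another gelatinase, stood at 5.51 to 8.87 TPM in the fBM-MSCs and at most 2.61 TPM in any other library, and the elastase inhibitor Slpi was highest in the A-MSCs at 18.4 ± 9.51 TPM (n = 3). Most of these enzymes have substrates other than elastin.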

How the data were processed

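RNA-seq libraries (Smart-seq2) and ATAC-seq libraries (FAST-ATAC) were made from cultured MSCs. Per the study's methods, the authors quantified RNA reads with RSEM and STAR against mm10 and deposited, per gene and library, the expected count, the TPM value and the transcript length averaged by abundance. ATAC-seq reads were trimmed with Trim Galore, aligned with Bowtie, cleared of duplicates with Picard, shifted for the transposase and given to MACS2 with a fixed background. The deposited peak lists, 1 pooled list per tissue, give each summit's offset, its fold enrichment (a ratio over background) and its −log10 q. Tool versions were not given in the sources used here. One vBM-MSC RNA-seq sample was not analysed here.

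Groups were taken from the sample labels. The deposited expected counts, rounded to whole numbers, entered edgeR 4.0.16 (TMM, quasi-likelihood F test, two-sided) in R 4.3.3 over the 12509 genes that reached a CPM of 1 in 2 or more libraries, with Benjamini-Hochberg adjustment over all of them, and called under 0.05. Differences in expression are log2 fold changes from this fit, and levels are TPM. Length was tested with limma 3.58.1 on its log2 value. Alternatives were DESeq2 1.42.0, its size factors, no filter, limma on log2(TPM + 1) and log2(TPM + 0.1), the replicate number as a block, the compared groups only and leaving out each library. The tests were checked on simulated counts. Total counts of 19569650 to 40517739 set the precision of low values. All 10 members are named. Of each other list, the 4 genes with the widest range among tissues were named, from those called in the test of 4 tissues and with at least 5 TPM on average in a tissue. The members, lists and tests were chosen with earlier results of these data known. One additive of the culture medium, shared by all groups, is not reported here.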

Additional observations from a re-analysis of the deposited data

How the results depend on the processing

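Of the 29 called differences with a direction among the elastic fibre genes, none changed direction under any alternative. Together with the 6 calls over the 4 tissues, which have no direction, they kept their call in 230 of 235 values under another tool, scaling, filter or model and in 364 of 385 values with 1 library left out. The exceptions concerned Fbn1, Fbln1, Fbln2, Fbln5 and Efemp2 and are given with those genes. In a model of the compared groups only, Fbn1 between fBM-MSCs and vBM-MSCs (adjusted p = 0.158), Fbln2 between fBM-MSCs and P-MSCs (0.0686) and Efemp2 between vBM-MSCs and A-MSCs (0.0595) were not called, and the count of called genes between A-MSCs and P-MSCs was 5 instead of 3, while the share of all genes called rose from 30.9 to 42.1%. Between fBM-MSCs and vBM-MSCs, the number of all genes called fell from 1601 to 297 (2.37%) in that model and to 610 (4.90%) without the first vBM-MSC library, with 3 elastic fibre genes called in each instead of 4. With limma on log2(TPM + 1) and log2(TPM + 0.1) (adjusted p = 0.0888 and 0.104), Fbn1 was not called between A-MSCs and P-MSCs. The cause was not tested. Differences gained in the model of the compared groups were Fbln1 between fBM-MSCs and P-MSCs (0.0393), Lox between vBM-MSCs and A-MSCs (0.0471), Fbn1 between vBM-MSCs and P-MSCs (0.00401), Fbln2 in the same comparison (0.00280), and Fbln2 (9.02e-06) and Fbln5 (0.000356) between A-MSCs and P-MSCs.

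With 1 library left out, the count of called genes between vBM-MSCs and A-MSCs moved. Without the third fBM-MSC library it was 4 instead of 3, with 29.1% of all genes called instead of 25.6%. Without the first vBM-MSC library, which leaves 1, fewer elastic fibre genes and fewer of all genes were called. The log2 difference (vBM-MSCs minus A-MSCs) then fell from 1.19 to 0.69 for Fbln5 and from 0.51 to 0.28 for Efemp2.

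All values that changed sign belonged to differences that were not called. With limma on log2(TPM + 1) and log2(TPM + 0.1) the log2 difference became 0.0288 and 0.0312 for Fbn1 between vBM-MSCs and A-MSCs (−0.10 in edgeR), 0.0222 and 0.0225 for Loxl1 in the same comparison (−0.09), and −0.0196 and −0.0305 for Fbln5 between marrow and non-marrow (0.05). With 1 library left out, the range was −0.49 to 0.37 for Fbln2 between fBM-MSCs and vBM-MSCs, −0.69 to 0.16 for Fbln2 and −0.23 to 0.37 for Lox between fBM-MSCs and A-MSCs, −0.23 to 0.0927 for Fbn1 and −0.69 to 0.16 for Fbln2 between vBM-MSCs and A-MSCs, and −0.20 to 0.23 for Fbln5 between marrow and non-marrow.

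The labels do not say that a replicate number marks a mouse. With tissue means removed, the 15 pairs of libraries with the same number had r from −0.04 to 0.16 (median 0.03, 1 above 0.1). The 30 pairs with different numbers had −0.17 to 0.17 (median −0.02, 1 above 0.1). With at most 3 libraries per tissue, these values cannot show whether the numbers pair the samples. With the replicate number as a block, no count of called genes moved by over 1.5 times and all 35 calls were still made. The uncalled Fbln5 difference between marrow and non-marrow then became −0.0720, and Fbln1 was called over the 4 tissues (adjusted p = 0.0434, edgeR).

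The number of summits at the 10 genes depends on the threshold and window by construction. In the fBM-MSCs, vBM-MSCs, A-MSCs and P-MSCs it was 104, 135, 234 and 161 with all deposited summits, 27, 42, 67 and 55 at −log10 q of at least 15, and 103, 124, 187 and 149 with 50 kb on each side. The A-MSCs had the highest number in each of these. Their whole list was also the longest, and Fbln2 alone held 46 of their 122 summits in the main setting.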
